A study of Homo sapiens with 24 samples.

Results

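The genes described here are 10 muscle actin and contractile genes: the muscle actins ACTA1, ACTA2, ACTC1 and ACTG2, and the actin-binding, myosin and tropomyosin genes TAGLN, CNN1, CNN2, MYL9, TPM1 and TPM2. They were taken by gene symbol from the 61551 genes of the count table, and all 10 were found, each in 1 entry. The set was selected on measured values: ACTA1 and TAGLN had been seen to be higher in HAR123-KO hESCs and lower in HAR123-KO neuroectoderm than in hHAR123 cells. The comparison of HAR123-KO with hHAR123 is therefore given as a description, with no p, for all 10 genes, and no p is given for ACTA1 or TAGLN wherever hHAR123 or HAR123-KO libraries were used. The other members were tested in the remaining comparisons, most of which share hHAR123 or HAR123-KO libraries with the one used in the choice.

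All cells were H9 (WA09) cells, an established human embryonic stem cell (hESC) line. HAR123 is a conserved noncoding element that changed rapidly in the human lineage. The unedited line, labelled WT, is called hHAR123; HAR123-KO cells lack the element, and cHAR123 and mHAR123 cells carry the chimpanzee or the mouse ortholog in its place, edited with CRISPR-Cas9. Each of the 4 genotypes was sequenced as hESCs and as neuroectoderm, the embryonic tissue that gives rise to the nervous system, made by 5 days with Noggin at 500 ng/ml, which blocks BMP signaling, and SB431542 at 10 μM, which blocks the activin and TGF-beta receptors. There were 3 libraries per genotype and stage, 24 in all. For RNA sequencing the study drew on 2 clones of every genotype, and which clone gave which library is not stated, so p-values measure the spread between libraries, which may be technical.

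Actins polymerize into filaments. Most cells rely on the nonmuscle actins ACTB and ACTG1, whereas the 4 muscle actins build the contractile apparatus of skeletal (ACTA1), cardiac (ACTC1), vascular smooth (ACTA2) and enteric smooth muscle (ACTG2). Many of these genes are turned on by serum response factor (SRF), a transcription factor that binds the CArG box. Its myocardin-related cofactors MRTFA and MRTFB are held in the cytoplasm by free actin monomers, so that the state of the cytoskeleton feeds back on the genes that build it. TGF-beta signaling is another well-known inducer of TAGLN, ACTA2 and CNN1 in mesenchymal cells.

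The CArG box is 10 bases long and consists of CC, then 6 bases that are each A or T, then GG, so that its reverse complement is again a CArG box. It is shown because SRF is the regulator that these genes are known to share. RefSeq promoters (GRCh38.p14, 250 bases before to 50 after the start site) were found for 8 of the 10 members. At least 1 promoter of ACTA1, ACTC1, ACTG2 and CNN2 held a CArG box, and those of ACTA2, CNN1, TPM1 and TPM2 held no exact match in this window. A box that departs from these letters was not counted. Of all 35116 promoters of that table, 454 (1.29%) held one. The stretches from 130 to 61 bases before the start site are given 5′ to 3′ on the strand of the gene, with the CArG box in capitals:
ACTA1 (chr1:229434155-229434224, minus strand): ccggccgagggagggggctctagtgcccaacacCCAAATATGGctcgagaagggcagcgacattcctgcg
ACTC1 (chr15:34795610-34795679, minus strand): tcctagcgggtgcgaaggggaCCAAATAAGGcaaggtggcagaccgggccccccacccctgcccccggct
ACTG2 (chr2:73892878-73892947, plus strand): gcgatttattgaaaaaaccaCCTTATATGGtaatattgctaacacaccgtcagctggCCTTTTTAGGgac
CNN2 (chr19:1026478-1026547, plus strand): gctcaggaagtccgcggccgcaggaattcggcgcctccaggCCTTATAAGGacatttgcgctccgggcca

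The box began 97 bases before the start of ACTA1, 109 before that of ACTC1 and 89 before that of CNN2. ACTG2 had a pair of boxes, beginning 110 and 73 bases before its start. A match of letters is a description and not a measured binding site.

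Total counts ran from 23334732 to 35198684 in hESCs and from 21022748 to 25978892 in neuroectoderm. The stages matched their labels in hHAR123. All 6 neuroectoderm markers rose (PAX6 by 10.96, HES5 by 10.69 and SOX1 by 7.64 on the log2 scale). All 5 pluripotency markers fell, 4 of them past the thresholds given below (TDGF1 with −9.24, NANOG with −7.24 and POU5F1 with −6.50). The names of the chimpanzee and mouse libraries are uncertain in neuroectoderm. Mean counts listed under cHAR123 in the supplementary differential expression table matched the count columns labelled mHAR123 (117 of 117 genes within 0.5%), and those listed under mHAR123 matched the columns labelled cHAR123 (114 of 114 genes). In hESCs the names matched. The libraries are therefore called by the label of their count column, and directions for cHAR123 and mHAR123 neuroectoderm hold for those labels. Reads over exons were counted with the strand setting not stated, and the actins have very similar coding sequences, so that reads could be divided among them. In these bulk libraries, fewer cells that express a gene and less RNA per cell cannot be told apart.

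**Figure D1:**
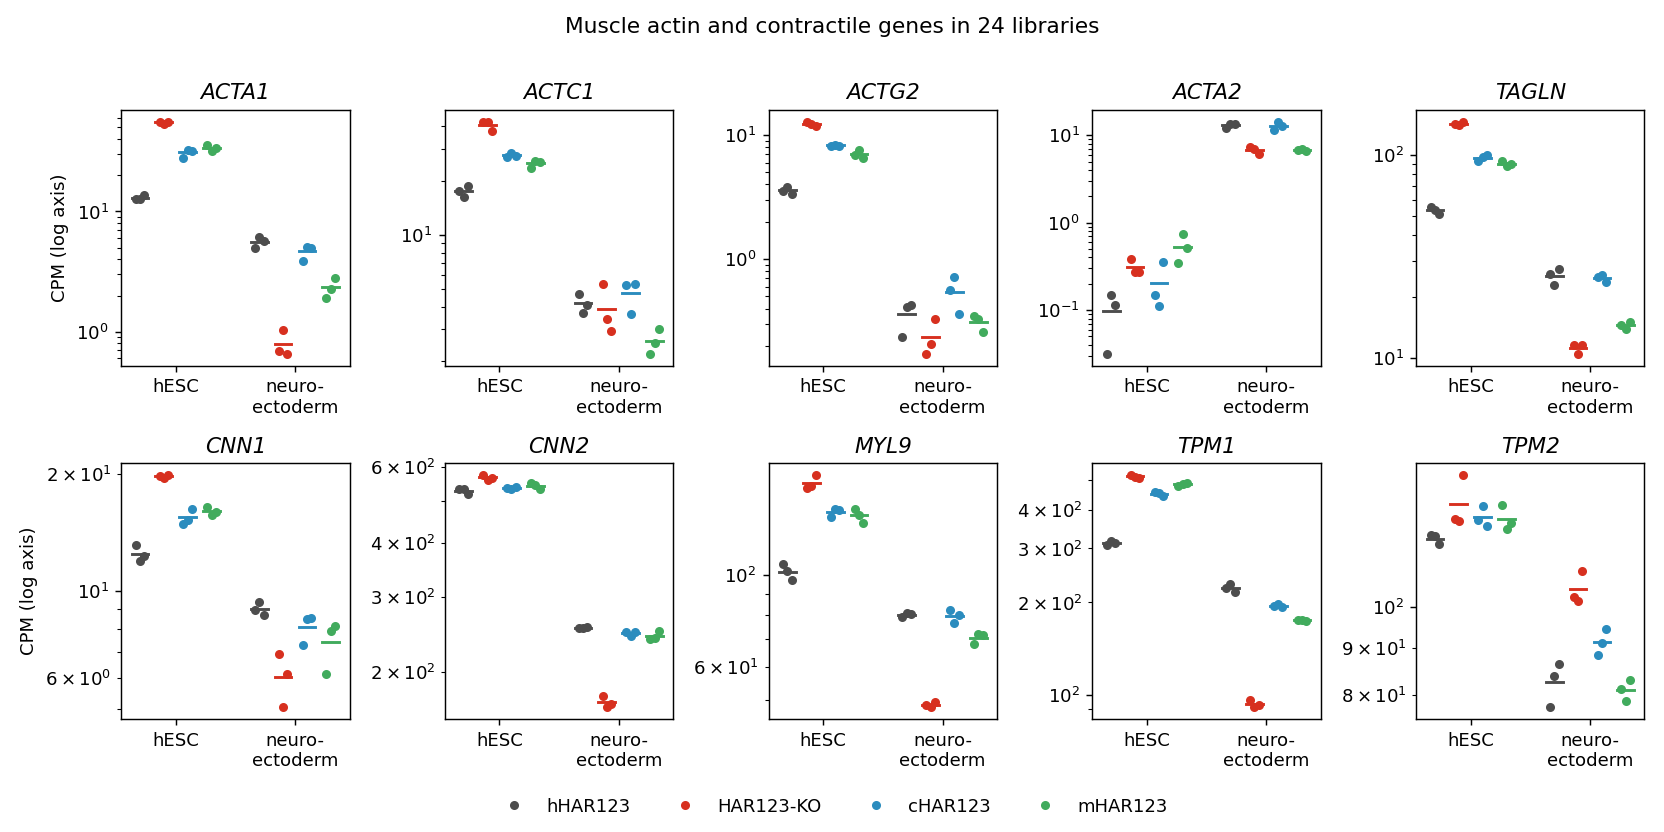
Level of each of the 10 genes in CPM (counts scaled by the library total, log axis, different range in each panel) in every library, by stage and genotype; points are libraries and lines are means of 3. HAR123-KO was the highest genotype for ACTA1, ACTC1, ACTG2, TAGLN, CNN1, MYL9 and TPM1 in hESCs and the lowest for ACTA1, TAGLN, CNN2, MYL9 and TPM1 in neuroectoderm.

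The skeletal muscle actin ACTA1 (ENSG00000143632, GRCh38 chr1:229430365-229434104, minus strand) had counts of 401, 419 and 484 in hHAR123 hESCs and 1307, 1583 and 1832 in HAR123-KO hESCs. These are 13.0 ± 0.64 and 55.1 ± 1.14 CPM (mean ± SD, n = 3 each), a log2 fold change of 2.06 with a standard error (SE) of 0.05. All HAR123-KO libraries lay above all hHAR123 libraries. In neuroectoderm the counts were 104, 148 and 134 in hHAR123 and 16, 25 and 16 in HAR123-KO. The order was thus the opposite, again without overlap, with a log2 fold change of −2.76 (SE 0.19). HAR123-KO held both the highest and the lowest group mean of this gene, 69.4 times apart.

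The cHAR123 and mHAR123 libraries fell between those of hHAR123 and HAR123-KO for ACTA1 at both stages, apart from an overlap of cHAR123 with hHAR123 in neuroectoderm. In hESCs the counts were 748, 886 and 983 in cHAR123 and 1236, 904 and 981 in mHAR123, or 31.0 ± 2.49 and 33.7 ± 2.05 CPM. In neuroectoderm they were 97, 121 and 111 in the libraries labelled cHAR123 and 50, 55 and 65 in those labelled mHAR123. The mHAR123 libraries lay below all cHAR123 libraries there (log2 fold change −0.97, SE 0.16, adjusted p = 1.29e-05 by edgeR), a difference short of the fold of 2 set for a change. In hESCs these genotypes overlapped (0.11, SE 0.06, adjusted p = 0.533).

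The cardiac actin ACTC1 (ENSG00000159251, chr15:34790230-34795549, minus strand) resembled ACTA1 in hESCs but not in neuroectoderm. In hESCs it had counts of 558, 540 and 656 in hHAR123, 993, 1241 and 1249 in HAR123-KO, 719, 769 and 842 in cHAR123 and 815, 734 and 746 in mHAR123. HAR123-KO was the highest genotype and hHAR123 the lowest, and no libraries of different genotypes overlapped in CPM. In neuroectoderm the counts were 99, 90 and 96 in hHAR123, 124, 82 and 72 in HAR123-KO, 132, 86 and 120 in cHAR123 and 57, 61 and 70 in mHAR123. Here HAR123-KO overlapped hHAR123, with a log2 fold change of −0.05 (SE 0.16) that ran from −0.34 to 0.12 as single libraries were left out, whereas it was 1.20 (SE 0.06) in hESCs.

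The enteric smooth muscle actin ACTG2 (ENSG00000163017, chr2:73892314-73919865, plus strand) had counts of 113, 127 and 118 in hHAR123 hESCs, 300, 361 and 394 in HAR123-KO, 219, 227 and 249 in cHAR123 and 239, 216 and 192 in mHAR123. The order was that of ACTC1, and the log2 fold change of HAR123-KO was 1.76 (SE 0.09). In neuroectoderm ACTG2 was close to absent in every genotype, with 4 to 17 counts per library. Fitted pair by pair, ACTG2 passed the filter on low counts there only in cHAR123 against hHAR123, where it had a log2 fold change of 0.60 (SE 0.40, adjusted p = 0.342 by edgeR). The libraries labelled cHAR123 had 14, 17 and 8 counts and those of HAR123-KO 4, 5 and 8, and in CPM the former all lay above the latter and above those labelled mHAR123. With all 24 libraries in one fit, cHAR123 passed against HAR123-KO (1.19, adjusted p = 0.00901), while without the filter the adjusted p was 0.0359 and with DESeq2 0.113, so that the call depends on the fit.

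The vascular smooth muscle actin ACTA2 (ENSG00000107796, chr10:88935074-88991339, minus strand) went the other way between stages. In hESCs it had 1 to 21 counts per library, too few for HAR123-KO and cHAR123 to be tested against hHAR123. In neuroectoderm the counts were 257, 324 and 314 in hHAR123, 288, 340 and 284 in cHAR123, 171, 169 and 150 in HAR123-KO and 174, 167 and 151 in mHAR123. These formed a high pair of genotypes, hHAR123 and cHAR123, and a low pair, HAR123-KO and mHAR123, with no overlap between the pairs and overlap within each. The log2 fold change against hHAR123 was −0.88 (SE 0.09) in HAR123-KO, −0.91 (SE 0.09, adjusted p = 7.2e-10) in mHAR123 and 0.00 (adjusted p = 0.98) in cHAR123. ACTA2 shares part of its exons with FAS and ACTA2-AS1 on the opposite strand, which had medians of 69.5 and 9.5 counts.

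To place these levels, they were scaled by gene length (TPM, counts per base of exon scaled to a common library sum) and set against the nonmuscle actins ACTB and ACTG1. In hHAR123 hESCs the 4 muscle actins made up 0.719%, 0.701% and 0.770% of the TPM of all 6 actins in the 3 libraries. The mean share was 0.730 ± 0.036% in hHAR123, 2.15 ± 0.068% in HAR123-KO, 1.37 ± 0.041% in cHAR123 and 1.36 ± 0.020% in mHAR123 hESCs. In neuroectoderm it was 0.743 ± 0.012%, 0.358 ± 0.054%, 0.691 ± 0.044% and 0.352 ± 0.019% (SD, n = 3 each, no test made). HAR123-KO thus had the largest muscle share of actin in hESCs and, beside mHAR123, the smallest in neuroectoderm.

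**Figure D2:**
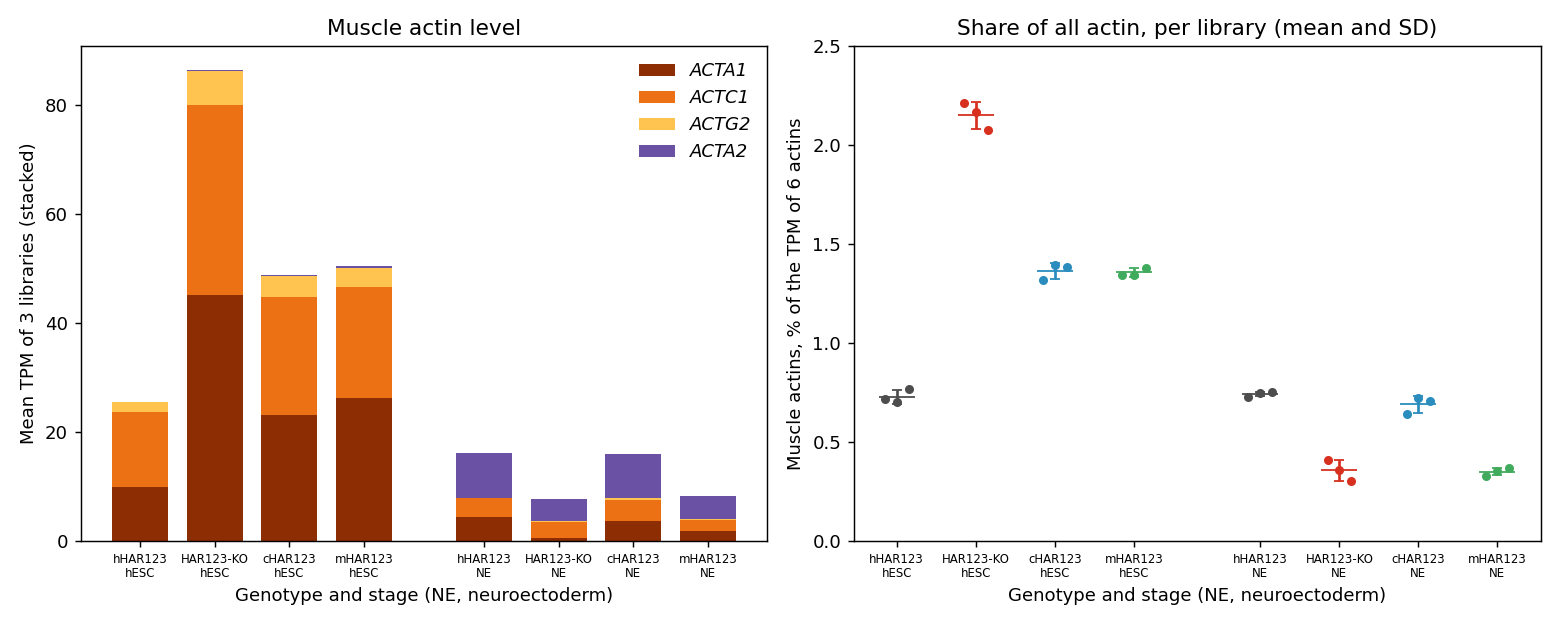
Left, mean TPM of the 4 muscle actins in each genotype and stage, stacked. Right, muscle actins as a percentage of the TPM of 6 actins, with points for libraries and the mean and SD of 3. The hHAR123 share of TPM was alike at both stages (0.730% and 0.743%, but 0.415% and 0.469% from raw counts) while its makeup moved from ACTC1 and ACTA1 to ACTA2.

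In hHAR123 the muscle share of actin TPM was alike at both stages and its makeup was not. From raw counts not scaled by length, the hHAR123 share was higher in neuroectoderm, 0.469 ± 0.0095% against 0.415 ± 0.018% in hESCs. In the other 3 genotypes the share was lower in neuroectoderm than in hESCs. In hHAR123 hESCs, ACTC1 gave 54.3% of muscle actin TPM, ACTA1 38.8%, ACTG2 6.70% and ACTA2 0.237%. ACTA1 came first in the hESCs of the other 3 genotypes, with 52.2% in HAR123-KO, 47.6% in cHAR123 and 52.3% in mHAR123. In neuroectoderm ACTA2 gave 50.6% in hHAR123 and 50.8% to 52.7% in the other genotypes. The ACTA1 part there was 27.2% in hHAR123 and 7.70% in HAR123-KO. The nonmuscle actins had a summed TPM of 3467 in hHAR123 and 3928 in HAR123-KO hESCs, and of 2165 and 2141 in neuroectoderm.

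TAGLN (transgelin or SM22, ENSG00000149591, chr11:117199370-117207464, plus strand), an actin cross-linking protein and early marker of smooth muscle, had counts of 1745, 1780 and 1794 in hHAR123 hESCs and 3296, 4095 and 4803 in HAR123-KO hESCs. The CPM were 53.2 ± 2.08 and 142 ± 3.19, a log2 fold change of 1.40 (SE 0.04). In neuroectoderm the counts were 542, 555 and 638 in hHAR123 and 268, 251 and 283 in HAR123-KO, with a log2 fold change of −1.13 (SE 0.08). HAR123-KO lay above hHAR123 in hESCs and below it in neuroectoderm, with no overlap at either stage.

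In cHAR123 and mHAR123 hESCs, TAGLN was at 96.7 ± 3.17 and 90.3 ± 2.62 CPM, between hHAR123 and HAR123-KO. In neuroectoderm the libraries labelled cHAR123, at 24.7 ± 0.93 CPM, overlapped hHAR123, at 25.3 ± 2.19. Those labelled mHAR123, at 14.4 ± 0.53, lay between hHAR123 and HAR123-KO, at 11.2 ± 0.64. The log2 fold change of mHAR123 against cHAR123 was −0.75 (SE 0.07, adjusted p = 2.63e-12). PCSK7, on the opposite strand, overlaps 34.1% of the TAGLN exons and had 1380 to 2237 counts in every library, so that some TAGLN counts may belong to it if strand was not used.

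The calponins bind actin and damp myosin activity. CNN1 (ENSG00000130176, chr19:11538767-11550323, plus strand), the smooth muscle form, was at 12.5 ± 0.61 CPM in hHAR123 hESCs, 19.7 ± 0.18 in HAR123-KO, 15.5 ± 0.74 in cHAR123 and 16.0 ± 0.42 in mHAR123. The genotype means kept the order of those of ACTA1, with smaller differences: the log2 fold change of HAR123-KO was 0.64 (SE 0.07) in hESCs and −0.53 (SE 0.11) in neuroectoderm. CNN2 (ENSG00000064666, chr19:1026586-1039068, plus strand), which is found in many cell types, was nearly level in hESCs, from 530 ± 9.38 CPM in hHAR123 to 568 ± 7.48 in HAR123-KO. In neuroectoderm it was at 254 ± 1.14 in hHAR123, 247 ± 2.84 in cHAR123, 243 ± 5.91 in mHAR123 and 170 ± 5.53 in HAR123-KO, so that HAR123-KO stood alone. CNN2 and ACTA1 both have a CArG box in the windows above, and their differences in hESCs were 0.08 and 2.06 on the log2 scale.

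MYL9 (ENSG00000101335, chr20:36541497-36551447, plus strand), the regulatory light chain of smooth muscle and nonmuscle myosin, was at 102 ± 4.58 CPM in hHAR123 hESCs, 167 ± 6.75 in HAR123-KO, 142 ± 3.23 in cHAR123 and 139 ± 5.69 in mHAR123. In neuroectoderm it was at 80.3 ± 0.99, 48.6 ± 0.79, 79.6 ± 2.98 and 70.6 ± 2.09 CPM. The order of genotypes at each stage was that of TAGLN.

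Tropomyosins lie along the actin filament and control access of myosin to it. TPM1 (ENSG00000140416, chr15:63042632-63071915, plus strand) was at 313 ± 4.85 CPM in hHAR123 hESCs, 516 ± 5.04 in HAR123-KO, 452 ± 5.80 in cHAR123 and 486 ± 4.90 in mHAR123. In neuroectoderm it was at 223 ± 7.04, 93.2 ± 2.63, 195 ± 2.49 and 175 ± 0.90 CPM. All 4 genotypes were separate at both stages, and the log2 fold change of HAR123-KO against hHAR123 in neuroectoderm was −1.21 (SE 0.04). TPM2 (ENSG00000198467, chr9:35681992-35690056, minus strand) behaved differently. It was at 119 ± 1.50 CPM in hHAR123 and 129 ± 8.66 in HAR123-KO hESCs, and at 82.7 ± 4.65 and 104 ± 4.26 in neuroectoderm, where HAR123-KO was the highest genotype (0.39, SE 0.04).

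Compared per length in hHAR123 hESCs, CNN2 had the highest level of the 10 members, at 263 ± 4.27 TPM, followed by TPM2 at 67.5 ± 1.08, MYL9 at 65.7 ± 1.55 and TPM1 at 41.1 ± 1.51. TAGLN, ACTC1, ACTA1 and CNN1 lay between 7.94 and 14.7 TPM, ACTG2 was at 1.70 ± 0.11 and ACTA2 at 0.0605 ± 0.038. For scale, ACTB was at 2234 ± 41.9 TPM. Of the members tested in HAR123-KO against hHAR123 hESCs, ACTA1, ACTG2, TAGLN and ACTC1 differed most and were at low TPM. The abundant CNN2 and TPM2 differed least. The order was not that of level throughout, since MYL9 (0.69) and TPM1 (0.70) differed more than CNN1 (0.64). In neuroectoderm TPM1 was at −1.21 and ACTC1 at −0.05. TPM also depends on the exon lengths, and by CPM TPM1 (313) was above TPM2 (119) in hHAR123 hESCs.

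**Figure D3:**
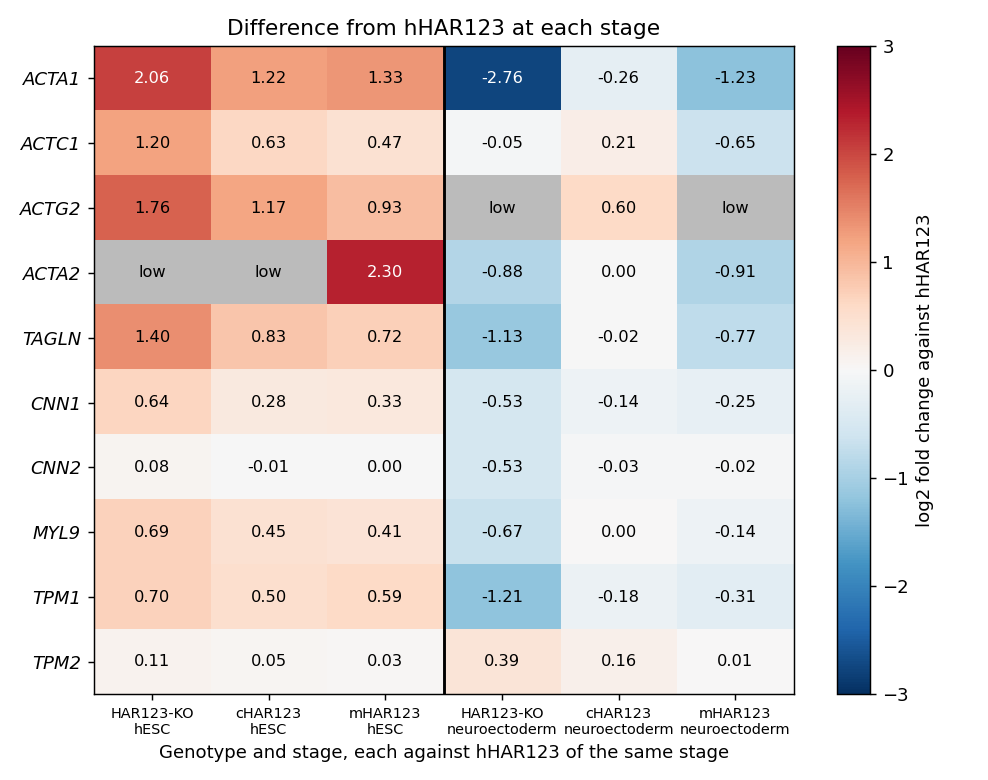
Log2 fold change of each gene in HAR123-KO, cHAR123 and mHAR123 against hHAR123 of the same stage (red higher, blue lower; low, not tested because of low counts). In hESCs the 3 genotypes have the same direction for most members, and in neuroectoderm 7 members are blue in the HAR123-KO column, with ACTC1 near 0 (−0.05), TPM2 red (0.39) and ACTG2 not tested.

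A gene was counted as changed at an absolute log2 fold change over 1 and an adjusted p under 0.01, where p came from the quasi-likelihood test of edgeR and was adjusted by Benjamini-Hochberg over all genes tested. In HAR123-KO against hHAR123 hESCs, ACTA1, ACTC1, ACTG2 and TAGLN passed, all higher, 4 of the 9 members tested; 1.18% of all genes tested passed. The median log2 fold change of the members was 0.70, against 0.00 for all genes. In neuroectoderm, ACTA1, TAGLN and TPM1 passed, all lower, 3 of 9 tested, against 9.45% of all genes, and the members' median was −0.67. The choice of the members used this contrast, and nothing is read from these counts. The later comparisons with hHAR123 or HAR123-KO share its libraries. A count there that includes ACTA1 or TAGLN is therefore no support either, and only the other members are read.

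In cHAR123 against hHAR123 hESCs, 2 of 9 members passed, ACTA1 and ACTG2, against 0.85% of all genes tested. Of these, ACTG2 alone was not used in the choice of the members. ACTG2 rose by 1.17 (SE 0.10, adjusted p = 1.36e-11). ACTC1, MYL9 and TPM1 were higher in every cHAR123 library, with log2 fold changes of 0.63, 0.45 and 0.50 (adjusted p = 6.23e-11, 5e-13 and 8.82e-19), all short of 1. In mHAR123 against hHAR123 hESCs, 2 of 10 passed, ACTA1 and ACTA2, against 1.23% of all genes tested. ACTA2 rose by 2.30 (SE 0.48, adjusted p = 0.000189), on 1, 5 and 4 counts in hHAR123 and 12, 21 and 15 in mHAR123, and DESeq2 gave it no adjusted p. It passed the filter on low counts here through the mHAR123 libraries. It did not in the comparisons of HAR123-KO and cHAR123 with hHAR123, so it is no support for the count. Of the other 9 members, ACTA1 alone passed, and it had been used in the choice. ACTG2 came close, with 0.93 (SE 0.11, adjusted p = 2.69e-09). TPM1 had 0.59 (adjusted p = 3.84e-25). CNN2 and TPM2 had differences between −0.01 and 0.05 in both genotypes (adjusted p from 0.296 to 0.951).

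Between mHAR123 and cHAR123 hESCs, 0 of 10 members passed by edgeR and 0 by DESeq2 (6 had an unadjusted p under 0.05), against 0.158% of all genes tested. Against HAR123-KO, 0 of 9 members passed in cHAR123 and 0 of 10 in mHAR123 by either tool, against 0.271% and 0.244% of all genes. Of these, 8 members in each had an unadjusted p under 0.05, and 7 an adjusted p under 0.01, all lower than in HAR123-KO. The share of all genes without the fold threshold was not taken, so nothing is read from these counts. ACTG2 was 0.58 lower on the log2 scale in cHAR123 (log2 fold change −0.58, adjusted p = 7.61e-07), and its log2 fold change was −0.82 in mHAR123 (adjusted p = 6.24e-09). The ortholog genotypes in hESCs thus lay below HAR123-KO by more than the spread of the libraries for ACTC1, ACTG2, CNN1, MYL9 and TPM1. These differences from HAR123-KO were below the fold of 2.

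In neuroectoderm, the libraries labelled cHAR123 were close to hHAR123. By edgeR and by DESeq2, 0 of 10 members passed (3 had an unadjusted p under 0.05), against 0.978% of all genes tested. TPM1 had a log2 fold change of −0.18 (adjusted p = 3.25e-05) and TPM2 of 0.16 (adjusted p = 0.00589). For the libraries labelled mHAR123, 1 of 9 passed, ACTA1, which was lower, against 1.03% of all genes. ACTA1 had been used in the choice, and no other member passed. ACTC1 had −0.65 (SE 0.16, adjusted p = 0.002), TPM1 −0.31 (adjusted p = 1.04e-08) and MYL9 −0.14 (adjusted p = 0.012). Direct comparison of mHAR123 with cHAR123 gave 0 of 9 by edgeR and 0 by DESeq2, against 0.261% of all genes, although 7 had an unadjusted p under 0.05. ACTA2 and ACTC1 were −0.91 and −0.87 there (adjusted p = 3.8e-10 and 9.42e-05). ACTA1 passed without cHAR123 replicate 1 (1 of 9) or without mHAR123 replicate 3 (1 of 9), and ACTC1 without cHAR123 replicate 2 (1 of 9).

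Against HAR123-KO neuroectoderm, 3 of 9 members passed in the libraries labelled cHAR123, ACTA1, TAGLN and TPM1, against 7.61% of all genes tested. Of these, TPM1 alone was not used in the choice. TPM1 rose by 1.05 (SE 0.03, adjusted p = 1.04e-40). In the libraries labelled mHAR123, only ACTA1, which had been used in the choice, passed, 1 of 9, against 7.33%. TPM1 had 0.92 (adjusted p = 1.96e-28), MYL9 0.55 (adjusted p = 1.13e-15) and CNN2 0.53 (adjusted p = 6.2e-20). TPM2 was lower in both than in HAR123-KO, with −0.20 and −0.35 (adjusted p = 3.05e-07 and 2.44e-11). With the cHAR123 and mHAR123 columns exchanged, the counts of 3 and 1 change places.

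From hESCs to neuroectoderm, 9 of the 10 genes were lower in every library and ACTA2 was higher in every library, in all 4 genotypes. The share of all genes that separate the stages in this way was not counted, so nothing is read from this count. In hHAR123, 6 of 10 passed, 1 higher and 5 lower, against 45.9% of all genes tested, so that passing is common in this comparison. ACTA2 rose by 6.68 (SE 0.21, adjusted p = 2.2e-27), from 1 to 5 counts per library to between 257 and 324. ACTC1 fell, with −2.37 (adjusted p = 5.73e-24), as did ACTG2, with −3.57 (adjusted p = 5.76e-17), and CNN2, with −1.35 (adjusted p = 6.89e-33). ACTA2 passed the filter on low counts here through the neuroectoderm libraries and ACTG2 through the hESC libraries. Neither is support for the count. ACTA1 and TAGLN had −1.50 and −1.36. CNN1, MYL9, TPM1 and TPM2 had log2 fold changes from −0.81 to −0.64.

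In the other genotypes 9 of 10 passed, 1 higher and 8 lower, against 41.1% of all genes in HAR123-KO, 42.7% in cHAR123 and 41.9% in mHAR123. TPM2 was the gene that did not, with −0.51, −0.66 and −0.79. ACTA2 and ACTG2 again passed the filter on low counts through the stage where they were high, so they are no support for these counts. The largest decrease was that of ACTA1 in HAR123-KO, with −6.31 (SE 0.10). ACTG2 in the same genotype followed, with −5.87 (SE 0.19, adjusted p = 4.27e-37), down to 4, 5 and 8 counts in neuroectoderm. ACTA1 fell by 2.94 in cHAR123 (SE 0.09, adjusted p = 4.16e-30) and by 4.03 in mHAR123 (SE 0.09, adjusted p = 3.57e-43). TAGLN fell by 2.17 in cHAR123 (adjusted p = 5.98e-36) and by 2.82 in mHAR123 (adjusted p = 3.62e-49). ACTA2 rose by 4.27 in HAR123-KO, 5.68 in cHAR123 and 3.51 in mHAR123 (adjusted p = 2.76e-27, 4.29e-27 and 3.58e-25), each from a few counts.

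**Figure D4:**
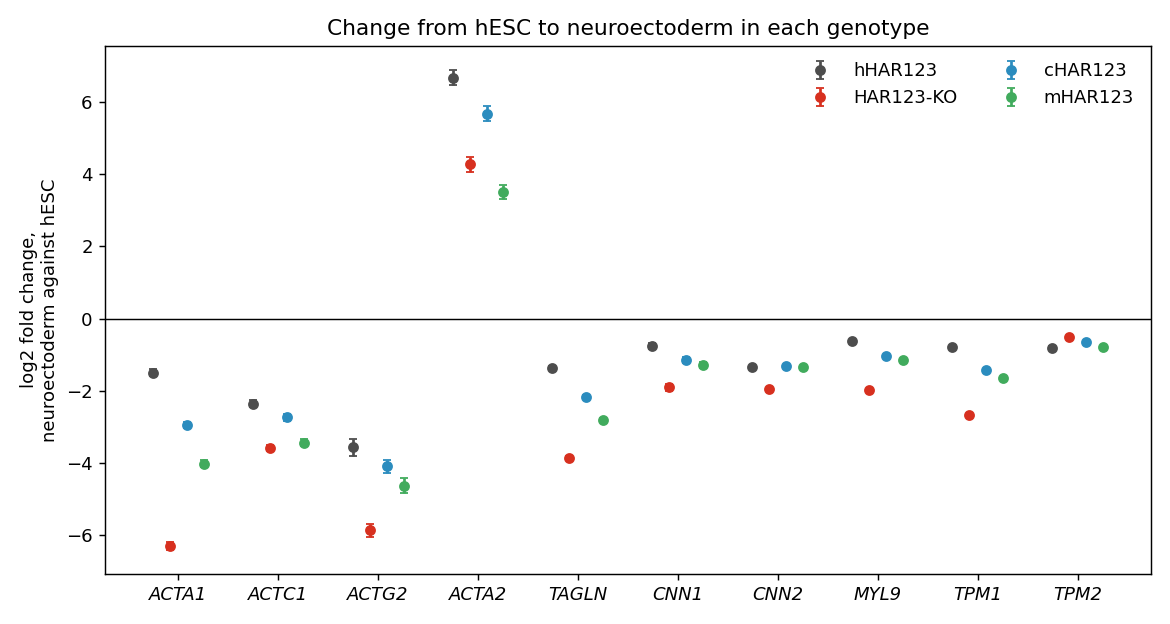
Log2 fold change from hESC to neuroectoderm for each gene and genotype, with bars of 1 SE (often smaller than the point). ACTA2 alone lies above 0, and for ACTA1, TAGLN, MYL9 and TPM1 the HAR123-KO point is the lowest and the hHAR123 point the highest.

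The difference between the stage changes was fitted as an interaction term, with the 12 libraries of a pair of genotypes. For HAR123-KO against hHAR123, 8 of 10 members passed, all lower, against 7.87% of all genes; these values are descriptions. They ran from −4.83 (SE 0.17) for ACTA1 to −1.18 (SE 0.12) for CNN1, with TAGLN at −2.53, TPM1 at −1.91 and MYL9 at −1.37. CNN2 was at −0.61 and TPM2 at 0.27. For cHAR123 against hHAR123, 1 of 10 passed, ACTA1 with −1.47, against 0.797% of all genes. ACTA1 had been used in the choice, and no other member passed. TPM1 and MYL9 had −0.67 (adjusted p = 1.25e-17) and −0.44 (adjusted p = 6.74e-08).

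For mHAR123 against hHAR123, 4 of 10 passed, all lower, against 0.967% of all genes. ACTA1 was at −2.54 and TAGLN at −1.47, and both had been used in the choice. ACTA2 was at −3.19 (SE 0.44, adjusted p = 2.94e-07) and ACTC1 at −1.10 (SE 0.16, adjusted p = 6.53e-07), the former resting on the few hESC counts given above (3 of the other 9 members passed), and ACTC1 fell short without replicate 1 of mHAR123 neuroectoderm, with −0.98 and 3 of 10 members passing. Of the members, CNN2 and TPM2 had stage differences of at most 0.12 in both ortholog genotypes (adjusted p of 0.144 or more).

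The members varied together across the 24 libraries, apart from ACTA2. The Pearson correlation of log2 CPM with ACTA1 was 0.990 for TPM1 and MYL9, 0.985 for TAGLN, 0.971 for CNN1, 0.784 for TPM2 and −0.784 for ACTA2. These libraries share genotypes and stages, so the correlations are descriptions. Within the 12 neuroectoderm libraries, ACTA2 correlated with ACTA1 at 0.845 and with TAGLN at 0.927, while TPM2 correlated with ACTA1 at −0.699. Within the 12 hESC libraries, CNN2 and TPM2 were the members least correlated with ACTA1, at 0.387 and 0.438. Among 15956 other genes with a mean of at least 1 CPM, those most like ACTA1 over the 24 libraries were GNG12 (0.984), ANXA3 (0.983), CCN1 (0.980), CCN2 (0.978) and MED14 (0.978). Those most like TAGLN were ANXA3 (0.990), MED14 (0.986), FAM157B (0.982), RYR2 (0.982) and CCN1 (0.982).

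CCN1 and CCN2, secreted matrix proteins known as targets of SRF and YAP, were likewise highest in HAR123-KO hESCs and lowest in HAR123-KO neuroectoderm. So were GNG12, ANXA3 and MED14. All were chosen here by their correlation with ACTA1, so the shared pattern follows from the choice. CCN1 was at 72.8 ± 0.83 CPM in hHAR123 and 139 ± 1.74 in HAR123-KO hESCs, and at 19.0 ± 1.21 and 5.37 ± 0.66 in neuroectoderm. CCN2 was at 92.8 ± 0.94 and 146 ± 3.36 in hESCs, and at 25.6 ± 1.72 and 8.70 ± 0.59 in neuroectoderm. In neuroectoderm their log2 fold changes in HAR123-KO were −1.77 and −1.50.

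The nonmuscle relatives of the members (ACTB, ACTG1, TAGLN2, TAGLN3, CNN3, MYL6, MYL12A, MYL12B, TPM3 and TPM4) differed little between HAR123-KO and hHAR123. By edgeR, 0 of 10 passed at either stage (7 had an unadjusted p under 0.05 at each), against 1.18% of all genes in hESCs and 9.45% in neuroectoderm, so nothing is read from this count. The log2 fold changes ran from −0.05 to 0.24 in hESCs and from −0.48 to 0.16 in neuroectoderm, with medians of 0.10 and 0.08. ACTB was at 5435 ± 40.3 CPM in hHAR123 and 5630 ± 56.2 in HAR123-KO hESCs, and at 2913 ± 48.7 and 3071 ± 29.6 in neuroectoderm. Between stages in hHAR123, where 45.9% of all genes passed in either direction, 4 of 10 passed as lower, among them TAGLN2 (−2.81, adjusted p = 1.06e-31) and TPM3 (−1.34, adjusted p = 2.07e-32). TAGLN3, the neuronal transgelin, rose by 3.09 (adjusted p = 9.31e-29). Of the 10, 2 had a positive log2 fold change.

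Of SRF and 6 of its cofactors, 1 passed in HAR123-KO hESCs, against 1.18% of all genes. This was MYOCD, the smooth and cardiac muscle cofactor myocardin, with 1.20 (SE 0.12), from 85, 71 and 110 counts in hHAR123 to 154, 180 and 195 in HAR123-KO. SRF itself was at 117 ± 1.37 and 118 ± 5.05 CPM. In neuroectoderm 0 of 7 passed by edgeR, against 9.45% of all genes, although all 7 had an unadjusted p under 0.05. SRF was at 58.7 ± 1.85 in hHAR123 and 62.5 ± 2.33 in HAR123-KO. Of the 7, 4 had a positive log2 fold change there. MYOCD was among them, with 0.94 (SE 0.15), so it was higher in HAR123-KO at both stages, unlike ACTA1 and TAGLN. Between stages in hHAR123, SRF fell by 1.29 (adjusted p = 3.61e-28) and ELK3 by 2.21 (adjusted p = 7.16e-25).

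Of 16 other known SRF-MRTF targets, among them VCL, FLNA and ZYX, 14 were tested in hESCs, where all had a positive log2 fold change in HAR123-KO. By edgeR 0 passed, against 1.18% of all genes (13 with an unadjusted p under 0.05, median 0.19). In neuroectoderm 2 of 15 passed, CCN1 and CCN2, both lower, against 9.45% of all genes, and the median was −0.06. The immediate early genes that SRF controls with TCF cofactors were level in hESCs, with a median of 0.06. There 0 of 7 passed by edgeR (1 with an unadjusted p under 0.05), against 1.18% of all genes. In neuroectoderm 5 of 7 passed, all lower in HAR123-KO, against the same 9.45%, with EGR2 at −1.94, EGR3 at −1.71 and EGR1 at −1.59. The log2 fold changes of all 7 ran from −1.94 to −0.26. Between stages in hHAR123, against that 45.9%, 10 of the 16 SRF-MRTF targets passed as lower, led by TGFB1I1 (−4.75), CSRP1 (−2.41) and CCN1 (−2.23), and 4 as higher. Of the immediate early genes, 3 passed as higher, among them EGR3 (4.63) and EGR1 (1.59), and IER2 (−1.72) passed as lower. The adjusted p was 2.49e-20 or less for these 6 named genes. Of the 7 immediate early genes, 6 had a positive log2 fold change between stages. EGR1 was at 99.9 ± 2.44 CPM in hHAR123 and 32.0 ± 1.95 in HAR123-KO neuroectoderm. These lists were drawn up with earlier results of the data known.

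**Figure D5:**
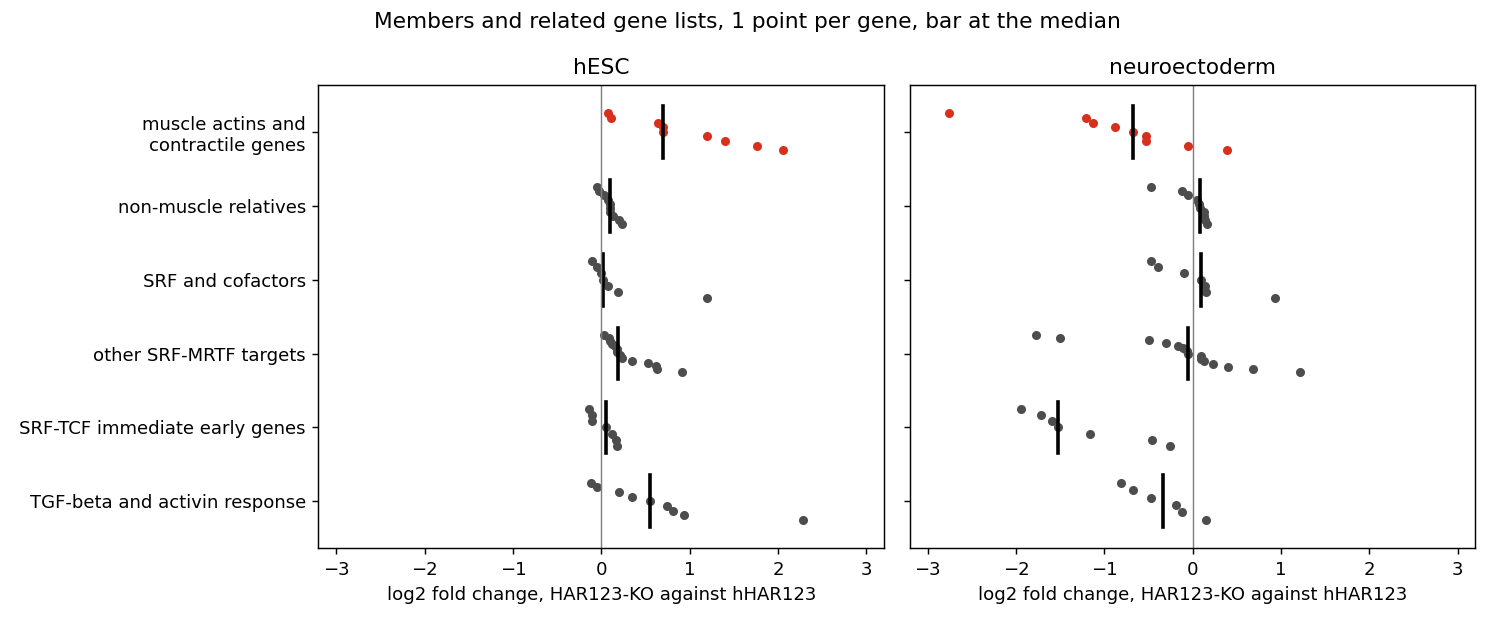
Log2 fold change of HAR123-KO against hHAR123 for the members (red) and 5 related gene lists (grey) in hESCs (left) and neuroectoderm (right), 1 point per gene tested, with a bar at the median. The members' median was 0.70 in hESCs and −0.67 in neuroectoderm, and that of the nonmuscle relatives 0.10 and 0.08.

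For 9 genes known to respond to TGF-beta or activin, the median log2 fold change of HAR123-KO against hHAR123 was 0.55 in hESCs, where 7 of 9 were above 0 and 8 had an unadjusted p under 0.05. In neuroectoderm, made with the receptor inhibitor, 0 of 6 tested passed by edgeR (3 with an unadjusted p under 0.05), against 9.45% of all genes. Between stages in hHAR123, 6 of 9 passed, all lower, against 45.9% of all genes passing in either direction, led by NODAL (−10.88), LEFTY2 (−6.32) and LEFTY1 (−5.38, adjusted p = 2.42e-24, 1.07e-26 and 2.47e-25). Of the 9, 2 had a positive log2 fold change. The part of this list in the stage change of the members was not tested.

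Markers of other cell types were measured beside these results. Of 6 smooth muscle markers, MYOCD alone passed in HAR123-KO hESCs, against 1.18% of all genes. In neuroectoderm MYH11 alone passed, against 9.45%, and was lower (−1.17). There 4 of the 6 markers had a positive log2 fold change, and the median was 0.30. The summed level of the 6 markers was 40.0 to 41.8 CPM in hHAR123 and 43.7 to 46.6 in HAR123-KO hESCs, and 28.3 to 30.4 and 42.1 to 44.7 in neuroectoderm. The 8 striated muscle markers summed to 4.18 to 8.88 CPM over all groups, with 3 to 5 of them at no more than 3 counts in every library of a group; MYOG was at 0 in all libraries of 6 of the 8 groups. Between stages in hHAR123, the smooth muscle genes SYNPO2 (−4.01) and DES (−1.55) and the troponin TNNT2 (−4.12) fell. By this measure, the skeletal muscle actin ACTA1 was present with the defining skeletal muscle gene MYOG at or near 0. No such reading is made for the cardiac actin ACTC1.

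Some mesenchymal and most neuroectodermal markers differed in HAR123-KO neuroectoderm. The summed level of 8 mesenchyme markers was 187 to 195 CPM in hHAR123 and 687 to 718 in HAR123-KO. Of 4 tested, COL1A2 (2.88) and PDGFRB (1.36) passed, against 9.45% of all genes. COL1A1 was at −0.20 (adjusted p = 0.00101) and THY1 at 0.01 (adjusted p = 0.844), and DCN or LUM was at 0 in all libraries of 5 of the 8 groups. The summed level of 6 neuroectoderm markers was 1210 to 1225 CPM in hHAR123 and 529 to 540 in HAR123-KO. All 6 had a negative log2 fold change and 4 passed, against the same 9.45%, led by HES5 (−3.00), SIX3 (−2.30) and SOX1 (−1.60). In hESCs the mesenchyme sum was 582 to 607 in hHAR123 and 667 to 685 in HAR123-KO. There 0 of 4 tested passed by edgeR (3 with an unadjusted p under 0.05), against 1.18% of all genes. In hHAR123 THY1 (−3.25), PDGFRB (−1.57) and COL1A1 (−1.20) fell between stages. The 5 pluripotency markers summed to 4090 to 4177 and 4161 to 4303 CPM in hESCs, with 0 of 5 passing by edgeR (3 with an unadjusted p under 0.05), against the same 1.18%. The HAR123-KO neuroectoderm libraries in which ACTA1, TAGLN and TPM1 were lower were thus also those with more COL1A2 and PDGFRB and less HES5, SIX3 and SOX1, and the part of these in the members' differences was not tested.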

How the data were processed

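RNA was sequenced from 24 libraries, 3 for each of 4 genotypes at 2 stages. The authors depleted ribosomal RNA, prepared directional libraries, aligned paired-end reads to GRCh38 with STAR 2.5.2b and counted reads over the exons of Ensembl genes with featureCounts. What the authors deposited are these raw counts, without normalization. Per the labels, groups were assigned by genotype and stage. The entry of 1 gene (ANK2), broken over 3 lines, was left out.

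Counts were analysed with edgeR 4.0.16 in R 4.3.3 (filterByExpr, TMM, quasi-likelihood F test, Benjamini-Hochberg adjustment over all genes tested), fitting the libraries of each comparison alone. Changed genes had an absolute log2 fold change over 1 at an adjusted p under 0.01. CPM are counts scaled by the library total, and TPM used the gene lengths in the deposited table. Correlations used log2 CPM with a prior count of 2. The pipeline was tested on simulated data. Same-group libraries differed by more than sampling noise (chi-square per degree of freedom of 1.41 or more).

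All 10 members are named. From each related list, the 3 largest changes with a mean of at least 1 CPM are named, with SRF, ACTB, TAGLN3 and the genes most like ACTA1 and TAGLN. A gene of the TGF-beta and activin list that this rule names is not reported here. The members and lists were chosen with earlier results of these data known. DESeq2 was fitted to all genes and read for the members only. Authors' own fold changes and p-values were not used. Alternatives were DESeq2 1.42.0, its size factors, no filter, an adjusted p of 0.05, no fold threshold, all libraries in one fit, a replicate block and leaving out each library.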

Additional observations from a re-analysis of the deposited data

Results flagged for a closer look

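The change from hESC to neuroectoderm differed from that of hHAR123 for 13 pairs of a member and a genotype, by the fit of the stage difference over 12 libraries (edgeR). Log2 differences below 0 mean a more negative stage change than in hHAR123.

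In HAR123-KO, 8 members met this mark. ACTA1, the skeletal muscle actin, was at −4.83, TAGLN at −2.53, ACTA2 at −2.43, ACTG2 at −2.33, TPM1 at −1.91, MYL9 at −1.37, ACTC1 at −1.25 and CNN1 at −1.18. The contrast was used in choosing the members, so these are descriptions. ACTA2 and ACTG2 rest on few counts at one stage, 1 to 21 per library for ACTA2 in hESCs and 4 to 17 for ACTG2 in neuroectoderm.

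In cHAR123, ACTA1 was at −1.47. In mHAR123, ACTA2 was at −3.19 (adjusted p = 2.94e-07, edgeR), ACTA1 at −2.54, TAGLN at −1.47 and ACTC1 at −1.10 (adjusted p = 6.53e-07). The neuroectoderm libraries of these genotypes carry uncertain names, and with their columns exchanged cHAR123 had 3 members past the thresholds and mHAR123 2. Groups of 3 libraries were not examined for single outlying libraries.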

How the results depend on the processing

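Every log2 fold change past the thresholds kept its sign under every alternative that gave a value. Without the fold threshold, the number of members at an adjusted p under 0.01 was, in hESCs, 7 for HAR123-KO, 7 for cHAR123 and 8 for mHAR123 against hHAR123, and 7 for cHAR123 and 7 for mHAR123 against HAR123-KO. In neuroectoderm it was 8, 2 and 5 against hHAR123, 7 for mHAR123 against cHAR123, and 8 and 7 for cHAR123 and mHAR123 against HAR123-KO. It was 10 for the stage change in hHAR123, and 4 and 7 for the stage differences of cHAR123 and mHAR123. The share of all genes at this threshold was not taken, so nothing is read from these counts. DESeq2 called 1 member in mHAR123 against hHAR123 hESCs, since ACTA2 received no adjusted p. With the cHAR123 and mHAR123 neuroectoderm columns exchanged, an alternative chosen after seeing the data, 1 member passed for cHAR123 and 0 for mHAR123 against hHAR123, 1 and 3 against HAR123-KO, and 3 and 2 for the stage differences. ACTA1 in mHAR123 against hHAR123 was then −0.26 and ACTC1 in the stage difference of mHAR123 −0.24. With all 24 libraries in one fit, 4 members rather than 3 passed for cHAR123 against HAR123-KO neuroectoderm, since ACTG2, which that fit retains, passed (1.19). Without single libraries, 0 to 1 member passed for mHAR123 against cHAR123 neuroectoderm and 3 to 4 for the stage difference of mHAR123.

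From raw counts not scaled by length, the muscle actin share was 0.415%, 1.24%, 0.788% and 0.780% in hHAR123, HAR123-KO, cHAR123 and mHAR123 hESCs, and 0.469%, 0.226%, 0.437% and 0.222% in neuroectoderm, the same order of the highest and lowest genotypes. The hHAR123 share was then higher in neuroectoderm than in hESCs, while it was alike by TPM. Same-numbered libraries did not deviate together (correlations from −0.054 to 0.057 over 16 pairs of groups, 1 pair with every library closest to its own number), so the numbers were not taken as pairs. With the replicate block the counts did not move, for example 4 and 3 members in HAR123-KO against hHAR123 hESCs and neuroectoderm. Low counts limit ACTA2 in hESCs and ACTG2 in neuroectoderm.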
